A study of Homo sapiens with 6 samples.

Results

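Transcripts of 36 genes that build the junctions and the apical polarity of epithelial cells were examined in SW480, an established human line derived from a colorectal adenocarcinoma. The genes were listed by their function as tight junction, desmosome, adherens junction, nectin and polarity genes. A gene was taken when a probe set carried its symbol alone in the platform annotation, which gave 35 of the 36 genes among 23752 named genes. F11R, which encodes a tight junction adhesion molecule, had no probe set under its symbol and was not analysed here. Probe sets without a symbol were not used. SW480 cells were transiently transfected by a liposome reagent with a pTarget plasmid that expresses TUSC3 (3 arrays) or with pTarget carrying no insert (empty vector, EV, 3 arrays), and the question was which transcripts differ when TUSC3 is added. Both groups therefore carried the plasmid backbone and had gone through the same transfection. The TUSC3 protein belongs to the oligosaccharyltransferase, which puts N-glycans on proteins entering the endoplasmic reticulum, and is a putative tumour suppressor. A single cell line was used, and the share of cells that took up plasmid was not given in the labels. Each array averages all cells of its culture, so a few strongly altered cells and many slightly altered cells cannot be told apart, nor can fewer cells of a kind and less RNA per cell. Whether the replicates came from separate cultures was not given, and p-values measure the spread between these arrays only.

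Tight junctions seal the space between neighbouring epithelial cells near their apical side. Claudins form the strands of that seal, some of them as barriers and some as pores for ions, while occludin and its relatives join the strands and ZO scaffold proteins tie them to actin. Desmosomes anchor keratin filaments through cadherins that are joined inside the cell by plakoglobin, plakophilins and desmoplakin, and adherens junctions join actin through catenins and afadin. The Par and Crumbs complexes place these junctions along the apical to basal axis of the cell. In colonic epithelium the junctions hold the mucosal barrier, and their loss accompanies the shift of carcinoma cells to a mesenchymal state.

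All values are log2 signals from RMA, 1 probe set per gene, and all differences are TUSC3 minus EV on that scale. A probe set's signal depends on its probes as well as on the transcript, so signals of different genes were not compared as transcript amounts. Since no detection call was used, the signals were set against 354 olfactory receptor genes, a family with little expression outside sensory neurons. Their median signal in the EV arrays was 3.07 and their 95th percentile 4.70. The added gene checked the labels: TUSC3 read 13.13, 13.11 and 13.09 in the TUSC3 arrays and 4.57, 4.33 and 4.63 in the EV arrays, a difference in array signal of 8.60 with an SE of 0.091 (limma, adjusted p = 7.71e-08). The EV signals of TUSC3 lay below that 95th percentile and were not told apart from background, so the 8.60 is not a measured change in transcript and the true rise may be larger. Markers of epithelial cells were all above it, with KRT18 at 11.09, KRT19 at 12.49 and CDH1, which encodes E-cadherin, at 9.17 in EV. Of the colonic markers 4 of 5 measured were above it, CDX2 at 7.93 among them, and CDH17, at 3.66, was not. Of 21 fibroblast, leukocyte and endothelial markers measured, 14 were not above it, among them DCN, PTPRC and PECAM1 at 2.66, 2.55 and 3.08, while COL1A1, at 6.51, and LYZ, at 7.24, were among those above it.

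Most of the junction genes read above the olfactory receptor reference in SW480, and each measured junction gene differed by less than 1.5-fold in array signal between the groups. A signal above that reference is no proof of a transcript, as some fibroblast, leukocyte and endothelial markers also lay above it. In the EV arrays 32 of the 35 genes lay above the olfactory receptor reference, against 13985 of all 23752 genes. The 3 that did not were the pore-forming claudin CLDN2 and the desmosomal cadherins DSC3 and DSG3. Among the 32 genes the differences between groups ran from -0.19 for CLDN7 to 0.14 for NECTIN2. The 3 others, whose signals were not told apart from background, differed by -0.22 (DSC3), 0.09 (DSG3) and 0.14 (CLDN2). The median difference was -0.030 over the 35 genes against 0.0013 over all genes. Of the 35 genes 15 were higher, against 50.4% of all genes, and 20 were lower, against 49.6%. The median was 0.0028 without TUSC3 replicate 3, so its sign rested on that array, and it was -0.0039 without EV replicate 3.

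None of the 35 genes passed the threshold of an adjusted p of 0.05 (limma, Benjamini-Hochberg over all 23752 genes), and the lowest adjusted p was 0.741, for DSG2. Over all genes 0.00421% passed, which was TUSC3 alone. At an unadjusted p under 0.05 there was 1 of 35, DSG2, against 6.71% of all genes. DSG2 was lower in TUSC3, as 3.30% of all genes were at that p. The intervals bound array signal, and how far a change in transcript shows in that signal was not tested. The signals of CLDN2, DSC3 and DSG3 were not told apart from background, so their intervals do not bound a change in transcript. Changes of 1.5-fold or more in array signal lay outside the 95% interval for 35 of 35 genes, against 91.1% of all genes and 93.9% of the 13985 genes above the olfactory receptor reference. Changes of 1.3-fold or more lay outside it for 30 of 35, against 66.3% of all genes and 75.4% of those above the reference. The other 5 were CLDN2, CLDN7, DSC3, CTNND1 and CRB3. Of the intervals, the widest reach below 0 was that of CTNND1, to -0.50, and the widest reach above 0 that of CLDN2, to 0.48. The bound of 1.5-fold did not hold for CTNND1 when any 1 array among replicates 1 and 3 of either group was left out, nor for CLDN2 without TUSC3 replicate 2, which left 34 of 35 in each of these 5 fits on 5 arrays.

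**Figure D1:**
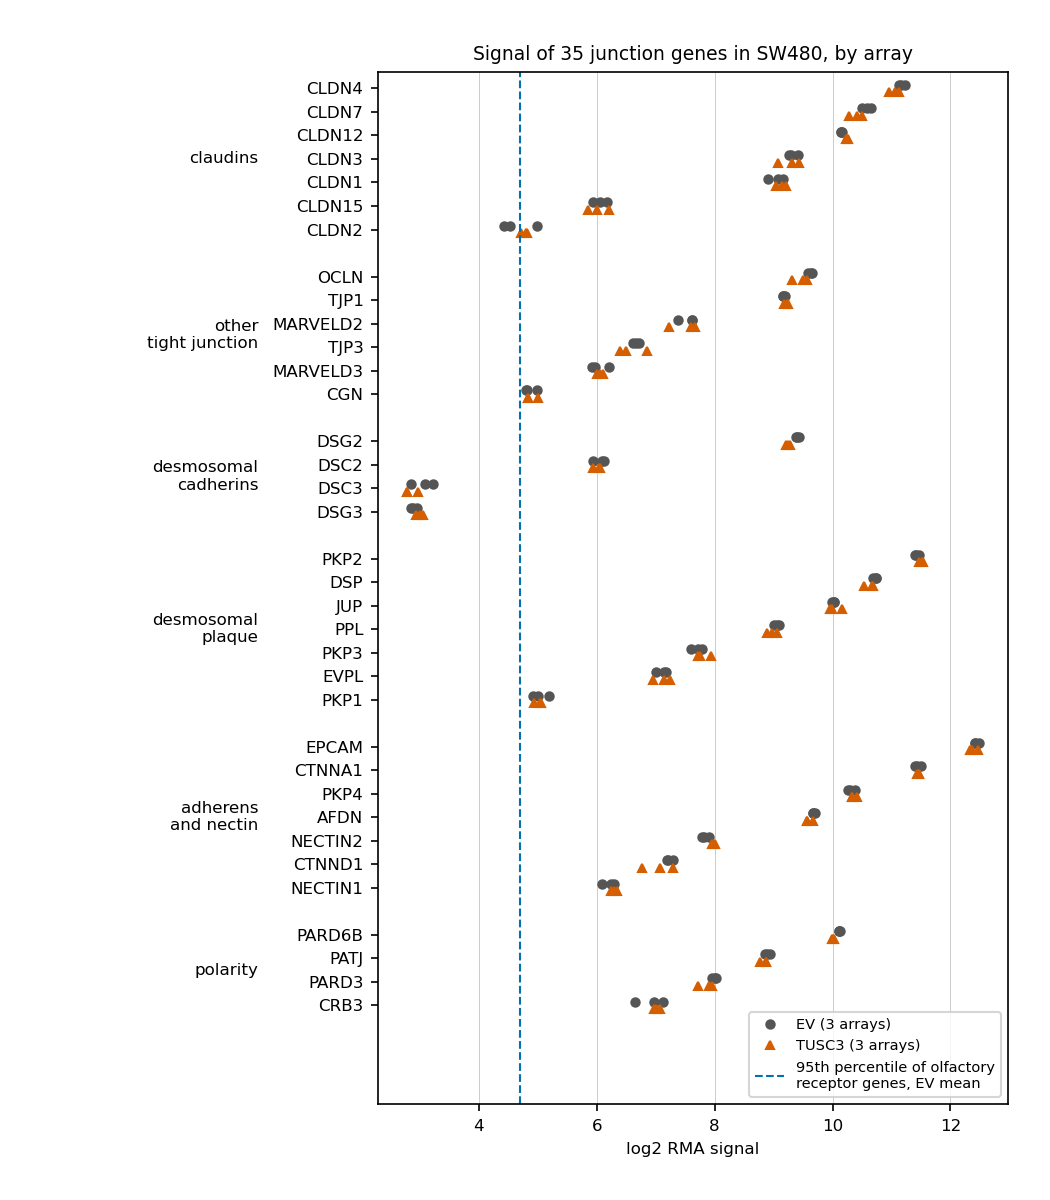
Log2 RMA signal of the 35 junction genes (x axis) in each EV array (grey circles) and each TUSC3 array (orange triangles), grouped by role and sorted by EV mean within a role. The dashed line is the 95th percentile of the olfactory receptor genes, at 4.70, and the EV means of CLDN2, DSC3 and DSG3 lie to its left.

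**Figure D2:**
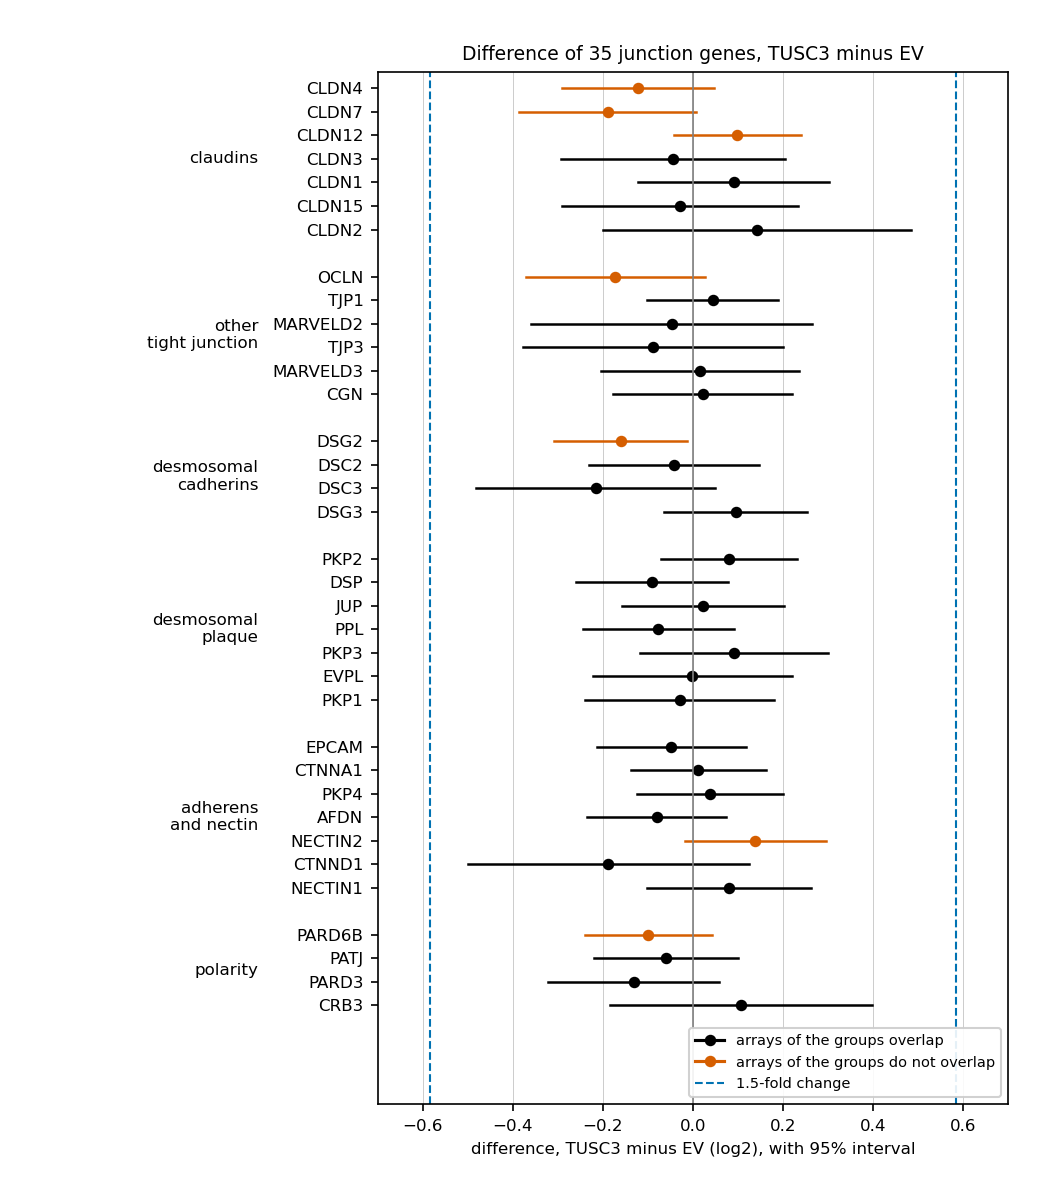
Difference of each junction gene, TUSC3 minus EV, on the log2 scale with its 95% interval from the moderated fit, in the same order. Every interval lies inside the dashed lines of a 1.5-fold change, and orange marks the 7 genes whose arrays do not overlap between the groups.

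TUSC3 and EV arrays did not overlap for 7 of the 35 genes, against 12.2% of all genes and 14% of the genes above the reference. CLDN4, CLDN7, OCLN, DSG2 and PARD6B were lower in every TUSC3 array than in every EV array, where 6.08% of all genes were. CLDN12 and NECTIN2 were higher in every TUSC3 array, where 6.17% were. None of the 7 passed the threshold, and with 3 against 3 arrays an exact two-sided permutation test cannot give a p below 0.1.

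**Figure D3:**
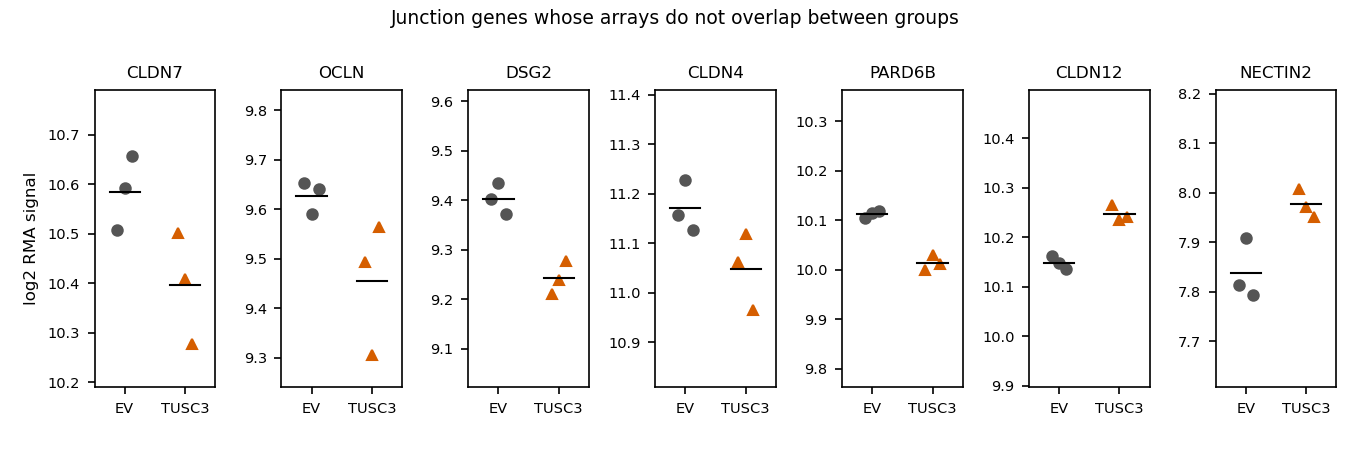
Log2 RMA signal per array for the 7 junction genes whose arrays do not overlap between the groups, EV as grey circles and TUSC3 as orange triangles, with a bar at each group mean. Each y axis spans the same width on the log2 scale and does not start at 0. CLDN7, OCLN, DSG2, CLDN4 and PARD6B are lower in TUSC3, and CLDN12 and NECTIN2 higher, all by 0.19 or less.

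The RefSeq promoter window, from 250 bases before to 50 after the start of the gene in GRCh38.p14, was matched by symbol for 25 of the 35 genes. It was searched on both strands for the E-box CAGGTG, whose reverse complement is CACCTG. This is the sequence that SNAI and ZEB repressors are known to bind in promoters of epithelial genes, among them that of E-cadherin. It occurred in the windows of 9 of the 25 genes, against 20.6% of 27305 promoter windows. The 9 were AFDN, CLDN3, CRB3, DSC2, DSG2, DSP, OCLN, PATJ and TJP1. Of these 7 were lower in TUSC3 and 2 higher, with a median difference of -0.059. Of the 16 genes without the letters 7 were lower and 9 higher, with a median of 0.017. Over all genes, with or without the letters, 49.6% were lower. The SE of a difference had a median of 0.080 over the 35 genes, and whether the letters go with a difference was not tested. Groups that did not overlap were found for 2 of the 9 genes with the letters and for 4 of the 16 without them. Over all genes the share was 12.2%. None of the 25 passed the threshold. A match describes the letters only and is not a bound site. The windows of DSG2 and OCLN are shown because both genes hold the letters and had arrays that did not overlap, and that of CRB3 because it held them 5 times, the most of the 25 windows. Capitals mark the E-box on either strand, and each window reads 5′ to 3′ along its gene.
DSG2, chr18:31497927-31498226, plus strand: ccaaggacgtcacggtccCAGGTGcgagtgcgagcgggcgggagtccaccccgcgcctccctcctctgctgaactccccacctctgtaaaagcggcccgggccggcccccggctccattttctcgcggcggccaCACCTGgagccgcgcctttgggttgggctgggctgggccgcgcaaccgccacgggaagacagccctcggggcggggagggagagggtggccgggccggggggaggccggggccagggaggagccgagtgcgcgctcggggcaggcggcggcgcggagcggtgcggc
OCLN, chr5:69492297-69492596, plus strand: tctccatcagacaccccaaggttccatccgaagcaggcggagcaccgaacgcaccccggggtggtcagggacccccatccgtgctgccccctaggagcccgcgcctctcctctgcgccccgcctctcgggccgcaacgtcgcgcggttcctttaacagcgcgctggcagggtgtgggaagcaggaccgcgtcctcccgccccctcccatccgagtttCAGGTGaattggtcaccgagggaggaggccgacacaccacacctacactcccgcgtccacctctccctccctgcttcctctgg
CRB3, chr19:6464021-6464320, plus strand: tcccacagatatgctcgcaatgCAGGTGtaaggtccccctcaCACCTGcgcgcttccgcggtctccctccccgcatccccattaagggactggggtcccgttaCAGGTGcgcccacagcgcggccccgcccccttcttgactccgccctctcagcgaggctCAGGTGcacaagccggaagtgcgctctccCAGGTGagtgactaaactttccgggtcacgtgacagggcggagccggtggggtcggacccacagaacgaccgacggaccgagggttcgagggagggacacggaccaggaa
The window of DSG2 held the letters 2 times and that of OCLN 1 time.

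Among the claudins, 6 of 7 were above the olfactory receptor reference. The differences of all 7 ran from -0.19 for CLDN7 to 0.14 for CLDN2, the 1 not above it. CLDN4, a barrier claudin of the intestine, read 11.16, 11.23 and 11.13 in the EV arrays and 11.06, 11.12 and 10.96 in the TUSC3 arrays. The groups differed by -0.12 with an SE of 0.072 and an interval of -0.29 to 0.05 (limma, adjusted p = 0.796). All TUSC3 arrays lay below all EV arrays, with TUSC3 replicate 2 close to EV replicate 3. CLDN7, a claudin that lies along the lateral membrane and binds EPCAM, read 10.51, 10.59 and 10.66 in EV and 10.50, 10.41 and 10.28 in TUSC3. The groups were separated only by the narrow step between TUSC3 replicate 1 and EV replicate 1. CLDN7 differed by -0.19 with an SE of 0.083 and an interval of -0.39 to 0.01 (adjusted p = 0.752).

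CLDN12, a claudin without the usual tail that binds ZO scaffolds, went the other way. It read 10.16, 10.15 and 10.13 in EV and 10.26, 10.23 and 10.24 in TUSC3, a change of 0.10 with an interval of -0.04 to 0.24 (limma, adjusted p = 0.805). The arrays within each group were closer to each other than the groups were. CLDN3, which lies next to CLDN4 in the genome with no protein-coding gene between them, read 9.32 in EV and differed by -0.05, with groups that overlapped. CLDN1, a barrier claudin, read 9.04 and differed by 0.09. CLDN15, a pore-forming claudin of the intestine, read 6.05 in EV and differed by -0.03. CLDN2 read 4.53, 4.42 and 4.98 in EV and 4.81, 4.72 and 4.82 in TUSC3. Its EV arrays lay on both sides of the reference of 4.70 and of all TUSC3 arrays, so its difference of 0.14, with an SE of 0.14, was smaller than the spread of the EV arrays.

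OCLN, which encodes occludin, read 9.65, 9.59 and 9.64 in EV and 9.49, 9.31 and 9.56 in TUSC3. OCLN differed by -0.17 with an SE of 0.084 and an interval of -0.37 to 0.03 (limma, adjusted p = 0.760). The EV arrays were close together and TUSC3 replicate 2 was the lowest of the 6. MARVELD2, which encodes tricellulin of the corners where 3 cells meet, is the neighbour of OCLN in the genome. It read 7.54 in EV and differed by -0.05 with an interval of -0.36 to 0.26, and MARVELD3, the other relative of occludin, read 6.04 and differed by 0.02. Of the scaffold genes, TJP1, which encodes ZO-1, read 9.17 in EV and differed by 0.04 with an interval of -0.10 to 0.19. TJP3, which encodes ZO-3, read 6.71, 6.67 and 6.61 in EV and 6.85, 6.49 and 6.39 in TUSC3. Its TUSC3 arrays lay on both sides of the EV arrays, and without TUSC3 replicate 3 the difference of -0.09 became 0.0028. CGN, which encodes the actin-linked plaque protein cingulin, read 4.86 in EV, just above the reference, and differed by 0.02.

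The desmosomal cadherins of simple epithelia and of stratified epithelia differed in their standing against the reference. DSG2 and DSC2, the desmoglein and desmocollin known from simple epithelia such as the colon, were above it at 9.40 and 6.05 in EV. DSG3 and DSC3, known from the basal layers of skin, were at 2.90 and 3.06, near the olfactory receptor median of 3.07. The annotation places these genes in 1 cluster, with DSC3 beside DSC2 and DSG3 beside DSG2. DSG2 read 9.40, 9.44 and 9.37 in EV and 9.21, 9.24 and 9.28 in TUSC3. All TUSC3 arrays were lower, with a mean difference of -0.16, an SE of 0.063 and an interval of -0.31 to -0.01 (limma, unadjusted p = 0.0365, adjusted p = 0.741). This was the 1 interval among the 35 that did not include 0. DSC3 read 2.86, 3.23 and 3.09 in EV and 2.78, 2.78 and 2.97 in TUSC3, at the level of the olfactory receptor genes. Its groups overlapped and its difference was -0.22 with an SE of 0.11 (adjusted p = 0.773). DSC2 differed by -0.04 and DSG3 by 0.09, both with overlapping groups.

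All 7 desmosomal plaque genes were above the reference, all had overlapping groups, and changes of 1.3-fold or more lay outside each interval. DSP, which encodes desmoplakin, the link to keratin, read 10.73, 10.68 and 10.74 in EV and 10.53, 10.67 and 10.68 in TUSC3. TUSC3 replicate 1 stood below the other arrays, and the difference was -0.09 with an interval of -0.26 to 0.08 (limma, adjusted p = 0.849). PKP2, the plakophilin of simple epithelia and heart, read 11.40, 11.47 and 11.42 in EV and 11.52, 11.46 and 11.54 in TUSC3, a difference of 0.08 (adjusted p = 0.854). One TUSC3 array lay just under the highest EV array. JUP, which encodes plakoglobin, a catenin shared by desmosomes and adherens junctions, read 10.02 in EV and differed by 0.02. PKP3, a plakophilin of most epithelia, read 7.71 and differed by 0.09, and PKP1, the plakophilin of stratified epithelia, read 5.04 and differed by -0.03. The plakins PPL and EVPL, known from the cornified envelope of skin, read 9.05 and 7.11 in EV and differed by -0.08 and -0.0016.

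The adherens junction and nectin genes were all above the reference. EPCAM, which encodes the epithelial cell adhesion molecule of epithelia and carcinomas, read 12.49, 12.42 and 12.41 in EV and 12.37, 12.33 and 12.47 in TUSC3. The groups overlapped, and the difference was -0.05 with an interval of -0.21 to 0.12 (limma, adjusted p = 0.922). CTNNA1, which encodes the alpha-catenin that couples E-cadherin to actin, read 11.44 in EV and differed by 0.01 with an interval of -0.14 to 0.16. CTNND1, which encodes the p120 catenin that holds cadherins at the membrane, read 7.21, 7.30 and 7.20 in EV and 7.08, 6.77 and 7.30 in TUSC3. Its TUSC3 arrays were spread more widely than its EV arrays and reached from below them to near their upper end. The difference of -0.19 had an SE of 0.13 and an interval of -0.50 to 0.12 (adjusted p = 0.827).

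NECTIN2, an immunoglobulin-like adhesion molecule of adherens junctions, was higher in every TUSC3 array. It read 7.81, 7.91 and 7.79 in EV and 8.01, 7.97 and 7.95 in TUSC3, a change of 0.14 with an SE of 0.066 and an interval of -0.02 to 0.30 (limma, adjusted p = 0.756). NECTIN1 read 6.21 in EV and differed by 0.08 with groups that overlapped. AFDN, which encodes afadin, the actin linker of nectins, read 9.68 and differed by -0.08, and PKP4, a p120 relative found in both kinds of junction, read 10.32 and differed by 0.04. CDH1, which encodes E-cadherin, differed by -0.05 with an interval of -0.20 to 0.11.

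Of the polarity genes, PARD6B, a subunit of the Par complex, read 10.10, 10.12 and 10.12 in EV and 10.00, 10.03 and 10.01 in TUSC3. Both groups were tight and did not overlap. They differed by -0.10 with an SE of 0.060 and an interval of -0.24 to 0.04 (limma, adjusted p = 0.800). The moderated fit raises a spread as small as that of PARD6B, whose EV arrays had an SD of 0.0081, toward the spread of all genes. PARD3, the scaffold of the same complex, read 8.03, 7.95 and 7.999 in EV and 7.90, 7.72 and 7.95 in TUSC3. Its difference was -0.13 with an SE of 0.081 (adjusted p = 0.805), and the highest TUSC3 array lay just above the lowest EV array. PATJ, a scaffold of the Crumbs complex, read 8.90 in EV and differed by -0.06. CRB3, the Crumbs protein of epithelia, read 7.12, 6.65 and 6.97 in EV and 7.001, 6.97 and 7.08 in TUSC3. Its TUSC3 arrays all lay within the range of the EV arrays, and its difference was 0.11 with an interval of -0.18 to 0.40.

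The plot of differences against signal places the junction genes among all genes. The SD between the EV arrays had a median of 0.056 over the 35 genes, against 0.11 over all genes and 0.086 over the genes above the reference. The SE of the difference had a median of 0.080, against 0.095 and 0.084. The size of the difference, without its sign, had a median of 0.081, against 0.078 over all genes and 0.069 over those above the reference. Among the roles, the median difference was -0.030 for the claudins, -0.016 for the other tight junction genes, -0.10 for the desmosomal cadherins, -0.0016 for the desmosomal plaque, 0.012 for the adherens and nectin genes and -0.079 for the polarity genes. These medians rest on 4 to 7 genes each and were not tested.

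**Figure D4:**
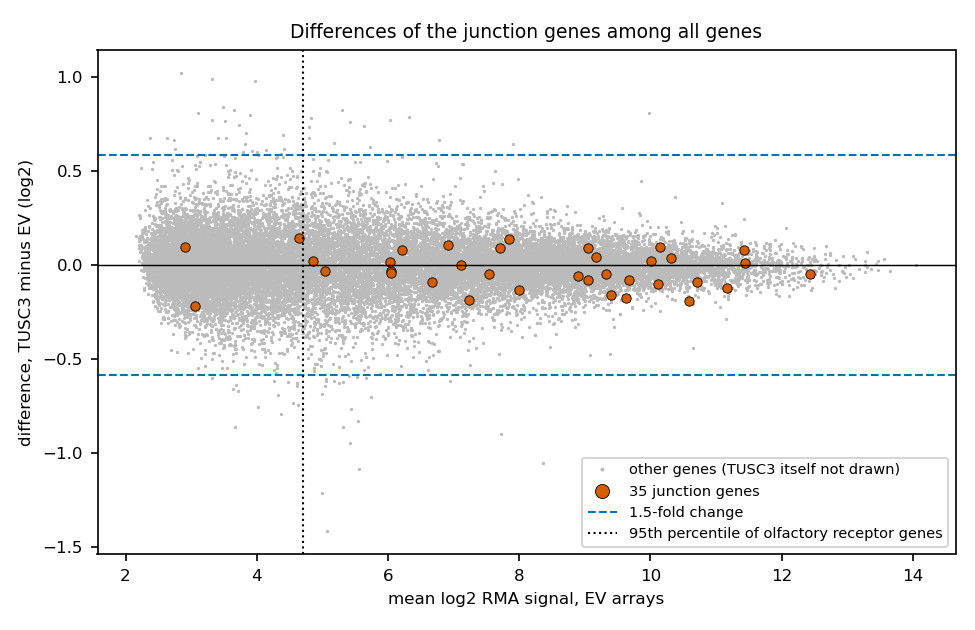
Difference, TUSC3 minus EV, against mean EV signal, both on the log2 scale, for the 35 junction genes (orange) and all other genes but TUSC3 (grey). The orange points lie between -0.22 and 0.14, inside the dashed lines of a 1.5-fold change, and 3 of them lie left of the dotted olfactory receptor reference.

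No further gene of the same junctions passed either. Of 85 further claudin, scaffold, desmosome, cadherin, nectin and polarity genes, 81 were measured. Above the reference lay 53 of them, against 13985 of all 23752 genes. The count past the threshold was 0 of 81 (limma). At an unadjusted p under 0.05 there were 2, against 6.71% of all genes. Both were lower, as 3.30% of all genes were at that p. The 2 were AMOT, which encodes the scaffold angiomotin, at -0.20 from an EV signal of 6.91, and CLDN34, at -0.43 from 3.66, which is below the reference. The genes with the smallest p among those that were higher were CTNNA2, the alpha-catenin of neurons, at 0.24 and CLDN22 at 0.15, both with EV signals below the reference. Of the 81 genes 39 were higher and 42 lower, with a median difference of -0.0069. Changes of 1.5-fold or more in array signal lay outside the interval for 78, against 91.1% of all genes. The 81 include 28 genes not above the reference, whose intervals do not bound a change in transcript.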

How the data were processed

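The deposited values were log2 expression levels that the authors had made with RMA, per the submitters' processing notes, 1 value per probe set and array. RMA corrects background, quantile-normalizes the arrays and summarises the probes of a probe set, so a shift of most genes in 1 direction cannot be seen. No version of RMA, array model or probe set definition is stated in the labels. All 6 arrays had a median of 5.50 to 2 decimals, and precision is limited by their number. TUSC3 replicate 1 stood apart in how its values were stored, with 22765 distinct values against 9648 on each other array, and results without it are among the leave-outs. Of 25088 probe sets, 23752 had 1 gene symbol, each symbol once, and 1336 were unnamed. Differences were fitted over the 23752 genes in R 4.3.3 by limma 3.58.1 (eBayes after lmFit, two-sided, no filter), with Benjamini-Hochberg adjustment, a threshold of 0.05 and 95% intervals. The procedure was tested on simulated data with planted changes of 1.5-fold or more. The differences of the members were smaller, so that test does not tell how well such differences would be detected. The members, the other lists, the tests and the alternatives were chosen with earlier results of these data known. In each role the genes given array by array were the 2 with the smallest p, the 1 with the highest EV signal and all whose groups did not overlap. CLDN2 and CRB3 were added after their values were seen. The alternatives were renormalization, a filter on dim probe sets, another variance prior, array weights, a replicate block and leaving out arrays.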

Additional observations from a re-analysis of the deposited data

How the results depend on the processing

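The count of junction genes past the threshold stayed at 0 of 35 in all 12 alternatives, the counts of the further junction genes and of the regulators stayed at 0, and the count was also 0 when a change of at least 1.5-fold was required. Over the 418 recomputed differences of single members the lowest adjusted p was 0.537 (limma). CLDN7 and DSG2 were both at 0.537 with a trended and robust variance prior. That prior gave 2 genes past the threshold over all genes in place of 1, and 6 of the 35 members had an unadjusted p under 0.05 in place of 1, where the share of all genes was 7.41% in place of 6.71%. In the other 11 alternatives 0 to 3 members did, where the share of all genes ran from 5.87% to 7.48%. The cause was not tested. Whether the replicate numbers pair the arrays was not given in the labels. The deviations of same-numbered arrays had correlations of -0.014, 0.043 and -0.011, which cannot tell whether the cultures were paired. With the replicate block the count was 0 members and 1 gene, with no member at an unadjusted p under 0.05. The difference in TUSC3 signal, against EV signals not told apart from background, ran from 8.51 to 8.66 over the leave-outs. The median difference of the 35 members ran from -0.044 to 0.0028 over the leave-outs, 13 to 18 members were higher, and 34 or 35 intervals excluded a change of 1.5-fold. That count of intervals, and the count of genes whose groups did not overlap, which stayed at 7 after either renormalization, were added as results after seeing the data. Without the dimmest 30% of probe sets DSC3 and DSG3 were not tested, and all 33 intervals of the other members excluded 1.5-fold. Between 30 and 33 members were above the olfactory receptor reference when its 90th or 99th percentile or the TUSC3 arrays were used, and 32 without any 1 EV array. Of the 418 differences 397 kept their sign, and 21 changed it without passing, 1 of them with array weights (EVPL, 0.012). The others were leave-outs, with ranges of -0.13 to 0.054 for CLDN3, -0.12 to 0.056 for CLDN15, -0.13 to 0.088 for MARVELD2, -0.044 to 0.10 for MARVELD3, -0.23 to 0.0028 for TJP3, -0.034 to 0.079 for CGN, -0.040 to 0.061 for JUP, -0.087 to 0.047 for PKP1, -0.065 to 0.074 for EVPL, -0.0079 to 0.040 for CTNNA1 and -0.026 to 0.21 for CRB3. The signals of CLDN2, DSC3 and DSG3 were not above the olfactory receptor reference and were not told apart from background. The intervals of these genes therefore do not bound a change in transcript. CGN and PKP1, at 4.86 and 5.04 in EV, were above the reference but below the 99th percentile of the olfactory receptor genes, 5.77. Whether their signals stand clear of background was not tested.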

Other observations

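Regulators of junction genes were read beside them. Of 18 such genes 17 were measured and 11 were above the olfactory receptor reference, against 13985 of all 23752 genes. SNAI2, which encodes the repressor Slug, read 9.33 in EV and ZEB1, another repressor of epithelial genes, 7.31, and TWIST1, at 2.86, was not above the reference. None of the 17 passed the threshold (limma), and 1 had an unadjusted p under 0.05, against 6.71% of all genes. That gene was ESRP1, a splicing regulator of epithelial cells, at -0.18 from an EV signal of 9.79. GRHL3, a grainyhead factor of surface epithelia, differed by -0.39 from 4.09, which is below the reference. On the higher side the smallest p were those of CDX2, an intestinal homeobox factor, at 0.13 and OVOL2, a factor that maintains the epithelial state, at 0.12. SNAI2 differed by 0.18 and ZEB1 by -0.02; these, and TWIST1, were chosen after their values were seen. Of the 17, 6 were higher and 11 lower, with a median of -0.040.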
